A study of Mus musculus with 26 samples.

Results

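The constitutive proteasome subunits were followed at the RNA level in regenerating mouse muscle and in C2C12 myoblasts. Members were the protein-coding genes whose symbols begin with Psma, Psmb, Psmc or Psmd followed by a number, without the immunoproteasome subunits Psmb8, Psmb9 and Psmb10. This gave 36 genes among the 22040 protein-coding genes listed in the regeneration table and 36 among the 21936 listed in the table of C2C12 cells. Of these, 16 belong to the core particle, 17 to the regulatory particle, and 3 encode chaperones that help to assemble its base.

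The proteasome is the enzyme complex that degrades proteins marked with ubiquitin. Its core particle is a barrel of stacked rings, in which outer alpha subunits control entry and inner beta subunits cut the substrate. The regulatory particle caps the barrel, where the lid takes off ubiquitin chains and the ATPases of the base unfold the substrate and push it into the barrel. In skeletal muscle this pathway is known for the turnover of contractile proteins, and transcription of many subunit genes is known to depend on the factor Nrf1, encoded by Nfe2l1.

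Tibialis anterior (TA) muscle of 6-week-old male C57BL/6J mice, all wild type, was sampled on days 0, 1, 3, 5 and 10 of injury with cardiotoxin (CTX), a venom toxin that destroys muscle fibres, with 2 libraries per day. Whether day 0 is untouched muscle or muscle injected with saline is not settled by the sources. C2C12 is an established mouse myoblast line, and the cells sequenced were a stable line with dCas9-KRAB and guide RNA to the Mettl3 promoter, which lower transcription of this m6A methyltransferase (Mettl3 knockdown), and Control cells. The methods speak of 2 complementary guide sequences and the supplement lists 3 primer pairs, and which guides this line carries is not stated. Each was sampled in growth medium (GM) and on day 3 of differentiation medium (DM3), with 2 libraries per group, and the labels do not say whether the line is 1 clone. The values are FPKM (fragments per kilobase of exon length and sequencing depth), made by the authors. Whole-read steps appeared with the joined exons of a gene as its length. For Psmb7 these span 3421 bases against 1160 in its principal transcript, and for Psmb5 899 against 899. Levels compared between genes, sums over members and shares of a pair therefore depend on the annotated exons. Steps of 1 read in the low values gave 14.2 to 18.8 M reads on genes in the muscle libraries and 14.2 to 29.6 M in the C2C12 libraries. Below, a gene is called where limma, fitted to log2 values over all genes of a table, gave a Benjamini-Hochberg adjusted p of at most 0.05, and only called genes are said to have risen or fallen.

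Some libraries stood apart before any comparison. Day 1 replicate 1 held the highest values of 12 of 14 core and 16 of 17 regulatory members in muscle, and Control GM replicate 2 held those of 14 of 14 core members in C2C12 cells. Xist, which is expressed from the inactive X chromosome of females, was at 5.78 to 10.0 FPKM in both libraries of day 0 and day 10 and in replicate 2 of day 3, and at 0.0170 to 0.152 FPKM in the other muscle libraries, although the mice are described as male. Mettl3 was at 4.68 to 5.65 FPKM in the 4 Control libraries and at 0.0805 to 0.331 FPKM in the 4 Mettl3 knockdown libraries. The summed level of the 7 muscle fibre markers in muscle was 50640 to 52630 FPKM on day 0 and 11680 to 13800 FPKM on day 3, while the 6 macrophage markers went from 17.2 to 33.2 FPKM to 512 to 542 FPKM. In bulk muscle, fewer cells of a type and less RNA per cell cannot be told apart.

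The core particle holds the alpha ring genes Psma1, Psma2, Psma3, Psma4, Psma5, Psma6 and Psma7, the non-catalytic beta ring genes Psmb1, Psmb2, Psmb3 and Psmb4, and the catalytic Psmb5, Psmb6 and Psmb7, which carry the chymotrypsin-like, caspase-like and trypsin-like activities. Psma8, the testis form of an alpha subunit, and Psmb11, the thymus form of a catalytic subunit, were at no more than 0.124 FPKM in any library and were not tested. In the regulatory particle, Psmc1, Psmc2, Psmc3, Psmc4, Psmc5 and Psmc6 encode the ATPase ring, Psmd1 and Psmd2 the scaffold of the base, and Psmd4 a ubiquitin receptor. The lid members are Psmd3, Psmd6, Psmd7, Psmd8, Psmd11, Psmd12, Psmd13 and Psmd14, the last of which is the enzyme that removes ubiquitin chains. Subunits with other symbols are not among the members, and Sem1 and Adrm1 were listed with other subunits and bound proteins. Psmd5, Psmd9 and Psmd10 encode the base chaperones. So 34 of 36 members were tested in each table, all with at least 0.5 FPKM in every library of both tables. Psmd9 shares 25.5% of its exon length with Gm26745, Psmb5 12.1% with Mir686, Psmb7 11.8% with Nek6 and Psmd13 10.1% with Sirt3, and since the strand setting of the counting is not stated, reads there may come from either gene.

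The 250 bases before the start site were searched for the letters TGACNNNGC, the core of the antioxidant response element that Nrf1 is known to bind, on both strands. A RefSeq window of the build GRCm38.p6 was at hand for 29 of the 36 members. It held the motif in 2 of 12 core genes (Psmb5 and Psmb6), 2 of 14 regulatory genes (Psmc6 and Psmd12) and 1 of 3 chaperone genes (Psmd9), together 17.2%, against 10.2% of all 32851 windows. The runs below show each match in capitals with up to 10 bases on each side, read in the direction of the gene.
Psmb5, chr14:54618024-54618052, minus strand: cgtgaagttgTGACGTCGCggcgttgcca
Psmb6, chr11:70525338-70525356, plus strand: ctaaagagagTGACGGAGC
Psmc6, chr14:45329587-45329615, plus strand: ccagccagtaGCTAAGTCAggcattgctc
Psmd12, chr11:107479278-107479299, plus strand: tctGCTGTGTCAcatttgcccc
Psmd9, chr5:123228149-123228177, plus strand: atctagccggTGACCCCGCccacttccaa
In Psmc6 and Psmd12 the capitals are the motif on the opposite strand. It lay 1 base before the start in Psmb6, 39 bases before it in Psmb5 and 239 bases before it in Psmd12. The letters CCAAT stood in 7 of 12 core and 4 of 14 regulatory windows, against 33.8% of all windows. The letters GGGCGG stood in 5 of 12 core and 9 of 14 regulatory windows, against 32.7% of all windows. These are matches of letters, not sites shown to be bound.

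In muscle, the members of highest mean level were Psmb5 (92.5 FPKM) and Psmb1 (88.4 FPKM) in the core particle and Psmc5 (89.9 FPKM) and Psmc3 (88.7 FPKM) in the regulatory particle. The lowest tested members of each were Psma2 (21.2 FPKM) and Psmd1 (16.6 FPKM). Within a library the highest core or regulatory member was 4.39 to 8.66 times the lowest. The chaperone genes were lower still, with Psmd9 at 2.06 to 3.34 FPKM, Psmd5 at 2.28 to 5.19 FPKM and Psmd10 at 5.11 to 10.8 FPKM. In C2C12 cells the order changed at the top, with Psma6 (107 FPKM) and Psmb4 (80.1 FPKM) first in the core particle and Psmc3 (86.8 FPKM) and Psmd2 (80.7 FPKM) first in the regulatory particle, and Psmd11 (12.4 FPKM) lowest. The tables were scaled separately, so no test was made between them.

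The summed level of the core particle was 780.2 and 696 FPKM on day 0, 997 and 720.3 on day 1, 693 and 685 on day 3, 623 and 598 on day 5, then 793 and 751 on day 10. For the regulatory particle the sums were 795 and 740.5 FPKM on day 0, 1112 and 814 on day 1, 686.5 and 694 on day 3, 666 and 604 on day 5, then 821 and 759 on day 10. Both particles were lowest on day 5 and returned to the day 0 range or above it on day 10, and on day 1 replicate 1 was well above replicate 2. The ratio of core to regulatory sums stayed between 0.885 and 1.01 in the 10 libraries. By group mean, 12 of 14 core and 15 of 17 regulatory members were highest on day 1. The exceptions were Psmb7 (day 0), Psmb6 and Psmc5 (day 10) and Psmc3 (day 3). By the same means, 10 of 14 core and 10 of 17 regulatory members were lowest on day 5, and 3 and 6 were lowest on day 3. Psma5 and Psmd8 were lowest on day 0.

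**Figure D1:**
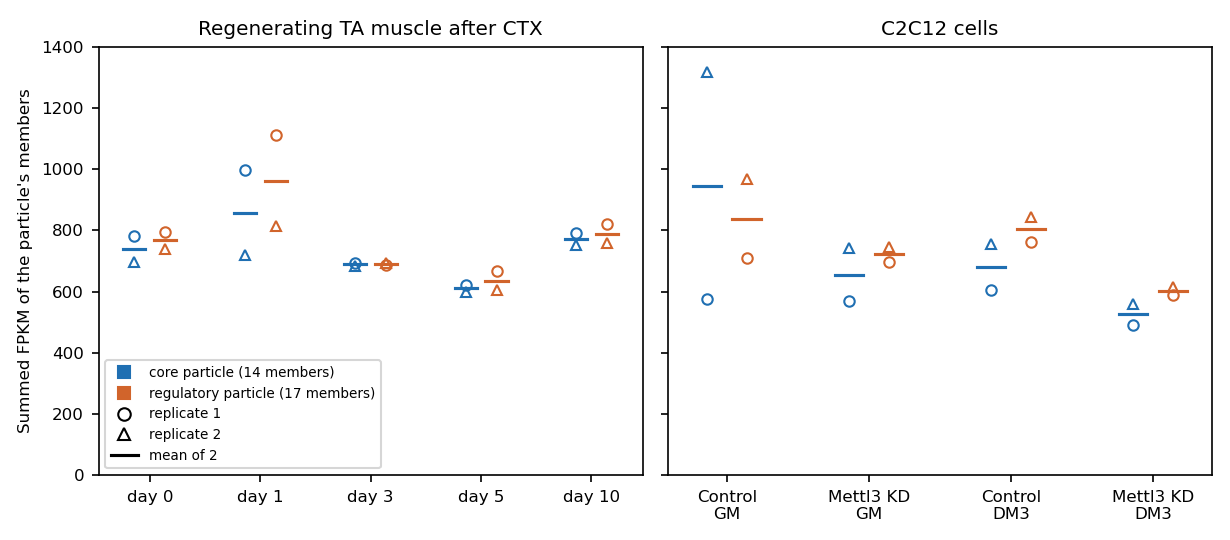
Summed FPKM of the 14 core (blue) and 17 regulatory (orange) members in each library of muscle by day after CTX (left) and of C2C12 cells by group (right); circles are replicate 1, triangles replicate 2, bars the mean of 2. Day 5 is lowest in muscle, and Control GM replicate 2 stands apart at 1317 FPKM for the core particle.

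On day 1 after CTX, 0 members were called against day 0, where 6.0% of all 16753 genes tested were called in either direction (limma). By sign, 13 of 14 core and 17 of 17 regulatory members were higher, with medians of 0.21 and 0.31 on the log2 scale beside 0 for all genes. An unadjusted p of at most 0.05 was found for 8 members, but the matching share of all genes is not given here. The largest difference was in Psmd8, a lid gene, at 37.5 and 42.9 FPKM on day 0 and 108 and 61.9 FPKM on day 1 (log2 fold change 1.02, limma adjusted p = 0.0575). Both day 1 libraries lay above both day 0 libraries for Psmd8, and for 4 of 14 core and 10 of 17 regulatory members in all, against 25.5% of all genes. The counts of calls and both particle medians moved with the day 1 library used, as did the share of all genes called. Without day 1 replicate 2 the core median was 0.45 and the regulatory median 0.46. Without day 1 replicate 1 the core median was -0.028 and the regulatory median 0.10.

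On day 3, 6 members were called against day 0. Psma5 rose, and Psma6, Psmb7, Psmd3, Psmd6 and Psmd12 fell, where 24.5% of all genes tested rose and 24.3% fell, so the share of members called was below that of all genes in both directions. The core median was -0.13 and the regulatory median -0.29, beside 0.01 for all genes. Psmd12, a structural lid subunit at chr11:107479484-107504362, went from 41.8 and 41.1 FPKM on day 0 to 25.1 and 25.4 FPKM on day 3, the largest fall among the members called (log2 fold change -0.71 ± 0.14 (SE, n = 2 per day), limma adjusted p = 0.00543). Psma5, an alpha ring gene at chr3:108256926-108279974, went from 40.3 and 37.1 FPKM on day 0 to 57.7 and 62.9 FPKM on day 3, and it was the 1 member that rose (log2 fold change 0.64 ± 0.21, limma adjusted p = 0.0350). The libraries of the 2 days did not overlap for either gene, but 38.9% of all genes tested lay fully higher and 39.1% fully lower on day 3. All 3 regulatory members called, Psmd3, Psmd6 and Psmd12, are lid genes, and the other lid genes ranged from -0.47 to 0.46 without a call.

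The direction of the particle medians on day 3 depended on the scaling. Quantile normalization moved the median of all genes by -0.12 and turned the medians to 0.26 for the core and 0.12 for the regulatory particle. It called 8 members as higher and 2 as lower in place of 1 and 5, where 50.4% of all genes were called, 28.2% as lower. Psmd12 remained called as lower there (log2 fold change -0.37, limma adjusted p = 0.0361), and Psma5 as higher (1.06). The regulatory median lay 0.16 below the core median as deposited and 0.14 below it after quantile normalization. It lay 0.19 below it with the libraries centred within bins of transcript length. With any 1 of the 4 libraries left out, the core median ran from -0.16 to -0.066 and the regulatory median from -0.36 to -0.25. Over 14 alternative settings the log2 fold change ran from -0.76 to -0.37 for Psmd12 and from -0.82 to -0.29 for Psmb7. It ran from 0.58 to 1.06 for Psma5 and from -0.53 to 0.00066 for Psma6. Psmd12 kept its call in 14 of these settings and Psmb7 in 13. Psma5, Psmd3 and Psmd6 kept theirs in 8 each, and Psma6 in 6. Only day 3 holds libraries both with and without Xist expression. With Xist status as a covariate, the estimates here are therefore those without day 3 replicate 1, which is no separate check.

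**Figure D2:**
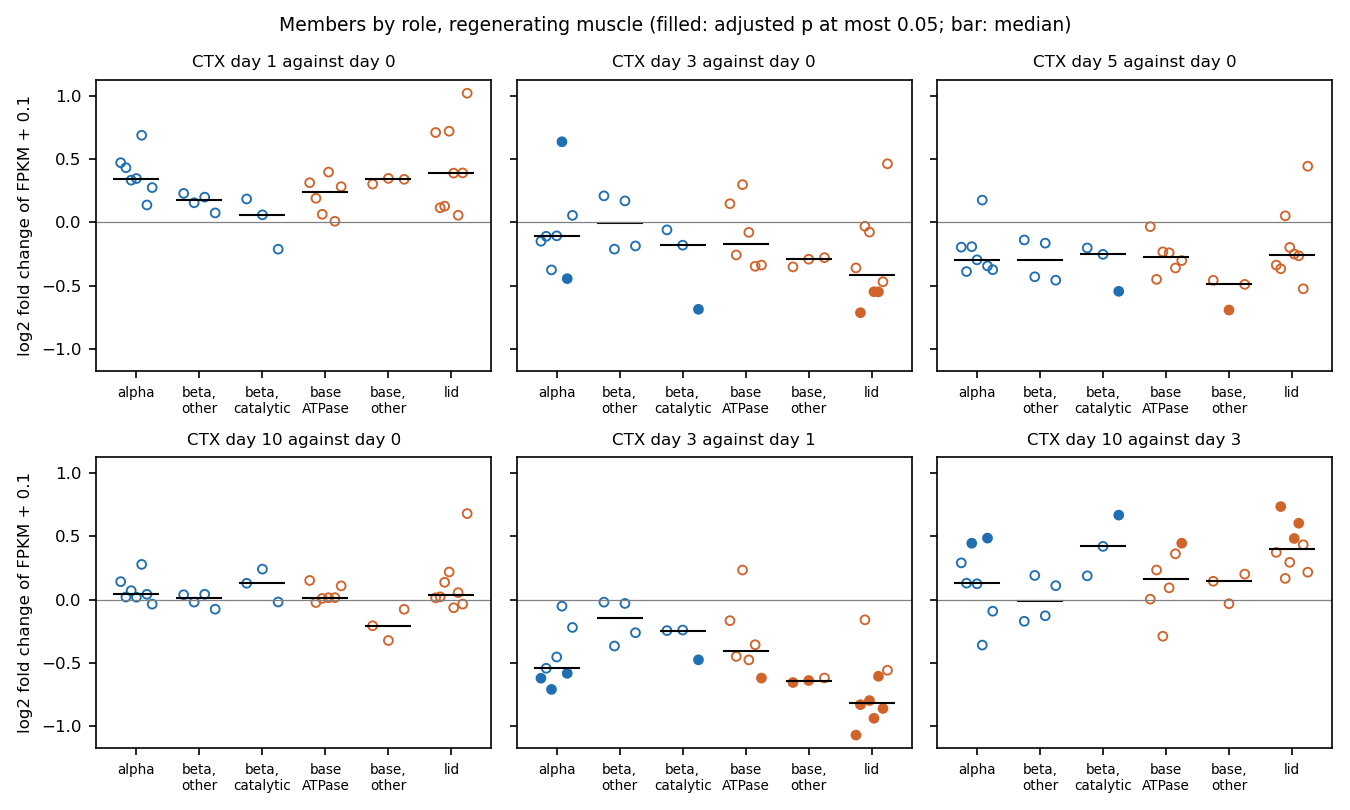
Log2 fold change of FPKM + 0.1 for each core (blue) and regulatory (orange) member by role in the 6 muscle comparisons; filled circles are called members and bars are role medians. The lid genes lie lowest on day 3 against day 1, with a median of -0.81, and the signs of the particle medians on day 3 against day 0 turn under quantile normalization.

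Among the catalytic subunits, Psmb7 was set apart after its values were seen, because it was called in every comparison that called a core member. It was at 74.7 and 62.0 FPKM on day 0, 62.8 and 54.9 on day 1, 42.5 and 41.9 on day 3, 49.1 and 44.2 on day 5, then 70.4 and 64.1 on day 10. It fell on day 3 against day 0 by 0.69 ± 0.14 on the log2 scale (limma adjusted p = 0.00590), while Psmb5 (95.8 and 86.1 FPKM on day 0, 83.5 and 91.1 on day 3) and Psmb6 were not called. After quantile normalization its change was -0.29 with a limma adjusted p of 0.0546. Each catalytic subunit has an immunoproteasome counterpart. Psmb10, the counterpart of Psmb7, made up 9.48% and 10.8% of the pair's summed FPKM on day 0 and 25.3% and 25.7% on day 3. Psmb8 made up 2.33% and 3.44% of its pair with Psmb5 on day 0 and 12.1% and 9.79% on day 3, and Psmb9 1.57% and 1.77% of its pair with Psmb6 on day 0 and 8.15% and 6.15% on day 3.

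On day 5, Psmb7 and Psmd2 fell against day 0, 2 of 34 members, where 12.5% of all genes tested fell and 12.9% rose. The 4 fibroblast markers summed to 51.6 to 157 FPKM on day 0, 617 to 688 FPKM on day 3 and 726 to 834 FPKM on day 5, and the muscle fibre markers to 35910 to 36360 FPKM on day 5, and their part in these falls was not tested. Psmd2, a scaffold of the base at chr16:20651652-20663414, went from 74.7 and 70.2 FPKM on day 0 to 48.6 and 41.2 FPKM on day 5 (log2 fold change -0.69 ± 0.16, limma adjusted p = 0.0234). It had been at 105 and 81.0 FPKM on day 1, 60.7 and 57.6 on day 3, with 61.9 and 54.1 on day 10, below day 0 in all the later libraries. The particle medians on day 5 were -0.27 and -0.30. After quantile normalization both were close to 0, with 0 members called, where 21.9% of all genes were called. With 1 library left out, the core median ran from -0.35 to -0.22 and the regulatory median from -0.34 to -0.27. With the Xist covariate 0 members were called, but so were 0% of all genes, so this count says nothing about the members. On day 10, 0 members were called against day 0, where 0.00597% of genes were called, which is 1 gene, and 1 member had an unadjusted p of at most 0.05. The medians were 0.04 for the core and 0.02 for the regulatory particle.

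The most calls came between day 1 and day 3, a comparison that shares the day 3 libraries with the one against day 0. Here 4 of 14 core members (Psma1, Psma3, Psma6 and Psmb7) and 9 of 17 regulatory members (Psmc6, Psmd1, Psmd2, Psmd3, Psmd6, Psmd7, Psmd11, Psmd12 and Psmd14) fell, and 0 rose, where 16.6% of all genes tested fell and 14.5% rose. The lid accounted for 6 of the 9, with a median over its 8 members of -0.81. The median was -0.64 for the base members that are not ATPases (2 of 3 called), -0.54 for the alpha ring and -0.40 for the ATPases. It was -0.24 for the catalytic beta genes and -0.15 for the other beta genes. Psmd11, a lid subunit at chr11:80428615-80473248, went from 31.7 and 21.8 FPKM on day 1 to 12.04 and 12.9 FPKM on day 3, the largest fall (log2 fold change -1.07 ± 0.18, limma adjusted p = 0.00592). It had been at 16.7 and 15.4 FPKM on day 0, so the day 1 libraries were the high ones. Psmd3 fell by 0.94 on the log2 scale and Psmd7, a partner of the deubiquitinating Psmd14, by 0.86, and Psmd14 itself by 0.80.

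The core median between day 1 and day 3 was -0.31 and the regulatory median -0.62, beside -0.01 for all genes. After quantile normalization they were -0.033 and -0.35, with 1 member called as higher (Psmc3) and 10 as lower. Of all genes, 34.2% were called after that scaling, 19.2% as lower. Without day 1 replicate 1 the medians were -0.092 and -0.41, and without day 1 replicate 2 they were -0.57 and -0.83. With the Xist covariate the estimates are those without day 3 replicate 2. The regulatory median lay 0.31 below the core median as deposited, 0.31 below it after quantile normalization, and 0.32 below it without day 1 replicate 1. It lay 0.25 below it without day 1 replicate 2, and 0.27 below it with the libraries centred within bins of transcript length.

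Psmc3, the 1 regulatory member with a higher mean on day 3 than on day 1, is an ATPase of the base. It was at 90.3 and 82.2 FPKM on day 0, 103 and 78.9 on day 1, 101 and 112 on day 3, 76.1 and 70.7 on day 5, then 90.1 and 83.6 on day 10, and it was not called in any muscle comparison as deposited. Psmc5, the ATPase of highest level, was at 104 and 92.4 FPKM on day 0, 109 and 88.8 on day 1, 77.4 and 76.5 on day 3, 78.2 and 74.3 on day 5, then 106 and 92.8 on day 10, also without a call. Of the core genes of highest level, Psmb5 was at 125 and 85.3 FPKM on day 1, 83.2 and 75.0 on day 5, with 108 and 91.4 on day 10. Psmb1, a non-catalytic beta subunit, was at 86.2 and 81.3 FPKM on day 0, 114 and 84.8 on day 1, 100.4 and 93.5 on day 3, 77.6 and 74.5 on day 5, then 84.6 and 87.5 on day 10.

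**Figure D3:**
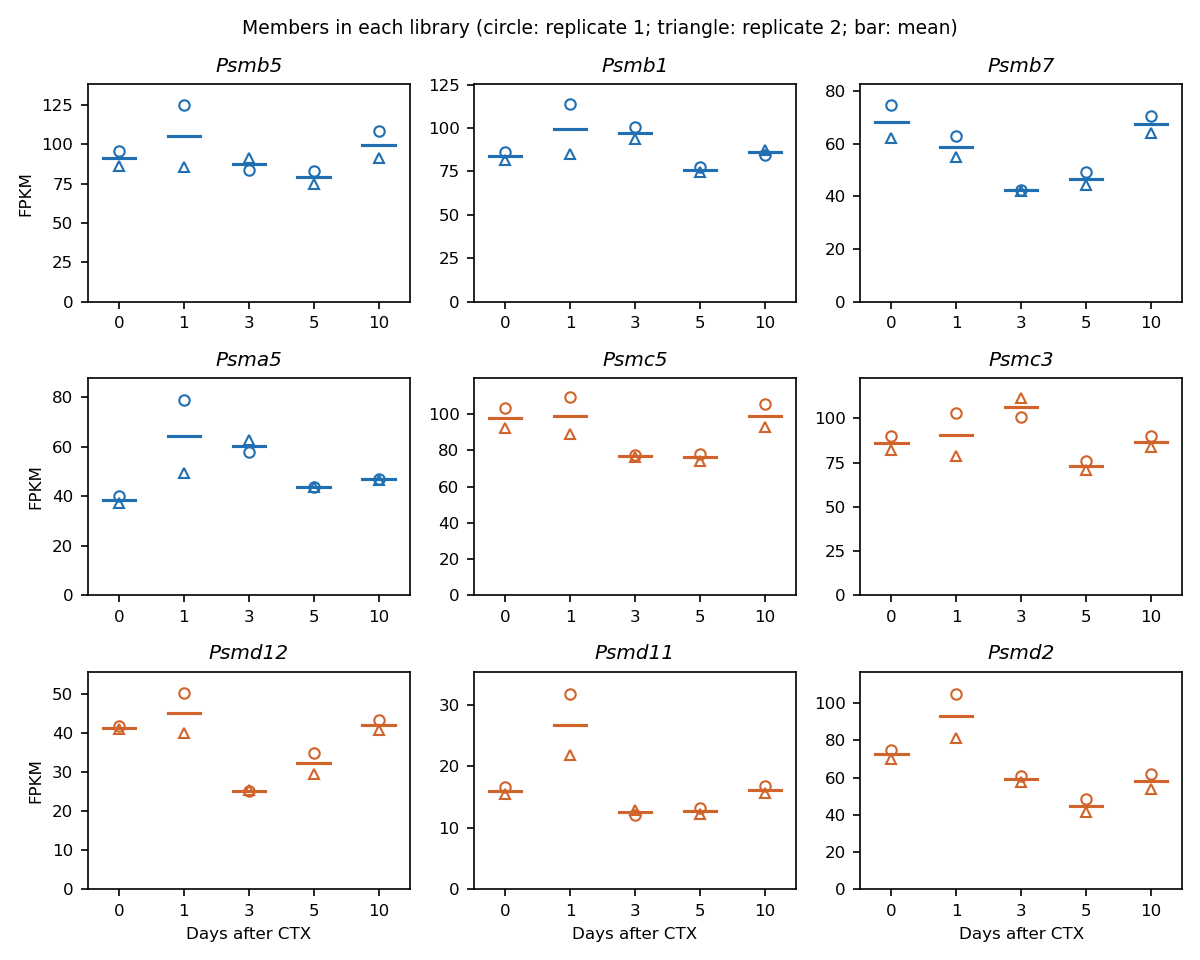
FPKM of 9 members in each muscle library by day after CTX (circle, replicate 1; triangle, replicate 2; bar, mean; blue, core; orange, regulatory), each axis starting at 0. Psmd12 and Psmb7 are low on day 3 and return by day 10, Psma5 is lowest on day 0, and Psmd11 is high in both libraries of day 1.

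From day 3 to day 10, 3 core members (Psma3, Psma6 and Psmb7) and 4 regulatory members (Psmc6, Psmd3, Psmd6 and Psmd12) rose and 0 fell, where 19.1% of all genes tested rose and 18.8% fell. All 7 had also fallen from day 1 to day 3, but these comparisons share the day 3 libraries. Psmd12, at 43.3 and 40.9 FPKM on day 10, rose most (log2 fold change 0.74 ± 0.14, limma adjusted p = 0.00672), and Psmb7 rose by 0.67. The medians were 0.16 and 0.23, and after quantile normalization -0.18 and -0.013, with 3 members called as higher and 6 as lower. Of all genes, 40.7% were called after that scaling, 18.2% as lower. With 1 library left out, the core median ran from 0.086 to 0.19 and the regulatory median from 0.22 to 0.32. Over 14 alternative settings the log2 fold change of Psmd12 ran from 0.44 to 0.78. Psmd12 kept its call in 14 of these settings and Psmb7 in 12, while the other called members kept theirs in 6 to 9. With the Xist covariate the estimates are those without day 3 replicate 1. Days 1 and 5 hold no library that expresses Xist and days 0 and 10 hold only such libraries, so Xist expression and the day cannot be told apart there.

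Of the other genes of the pathway, 42 were listed and tested in muscle. On day 3 against day 0, 8 rose and 14 fell, beside the 24.5% and 24.3% of all genes. The immunoproteasome genes rose in 3 of 3, led by Psmb8 (log2 fold change 1.97). Of the activator caps, Psme2 rose by 0.93 and Psme3 and Psme4 fell by 0.43 and 1.06 on the log2 scale. Of the factors that assemble the core, 2 of 5 rose, Psmg4 by 0.84, and Psmf1, an inhibitor of the proteasome, fell by 0.54. Among other subunits and proteins bound to the proteasome, 3 of 7 fell, with the ubiquitin receptor Adrm1 and the deubiquitinase Uchl5 among them. Ecpas fell by 1.49, the largest change outside the immunoproteasome genes. Among shuttle receptors, which carry ubiquitinated proteins to the proteasome, Ubqln4 fell by 1.01 on the log2 scale. Of 5 segregase genes, Faf1 and Ufd1 fell, and of the 2 ubiquitin-activating enzymes 0 changed.

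In the Nrf1 pathway, 1 of 5 rose and 2 fell. Nfe2l1, which encodes Nrf1, was at 157 and 153 FPKM on day 0, 125 and 131 on day 1, 60.3 and 59.9 on day 3, 101 and 81.0 on day 5, then 141 and 116 on day 10, a fall by 1.37 on the log2 scale on day 3 (limma adjusted p = 0.000536). Ngly1, which removes sugar chains from Nrf1, fell by 0.97, and Nfe2l2 rose by 0.57. Nfe2l1 and the muscle fibre markers were lowest on the same day, and the part of cell composition in either was not tested. Of the ubiquitin genes, Rps27a rose by 1.07 and Ubb, which encodes a chain of ubiquitin units, fell by 0.57. On day 1 and on day 10, 0 of the 42 were called against day 0.

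In C2C12 cells, Mettl3 itself differed between Mettl3 knockdown and Control by -4.56 on the log2 scale in DM3 (limma adjusted p = 0.0187) and by -4.10 in GM (limma adjusted p = 0.188). Of the 34 members tested, 0 were called in any comparison. Differentiation of Control cells was compared first. All 14 core members were lower by sign in DM3 than in GM (median -0.36), against 11 of 17 regulatory members (median -0.08), where 1.14% of all 13824 genes tested were called in either direction, and 1 member, Psmc6 (log2 fold change 0.67), had an unadjusted p of at most 0.05. The core sums were 575 and 1317 FPKM in Control GM and 604.5 and 756 FPKM in Control DM3, so the sign was set by replicate 2 of Control GM. Without that library the medians were 0.30 and 0.24, and without replicate 1 they were -0.98 and -0.33. Psma6 was at 91.8 and 198 FPKM in Control GM and 85.3 and 107 FPKM in Control DM3, and Psmb4 at 74.4 and 165 and at 67.4 and 82.0 FPKM. Psmc3 was at 74.6 and 112 FPKM in Control GM and 101 and 114 FPKM in Control DM3, and Psmd2 at 96.2 and 76.5 and at 76.6 and 78.0 FPKM. The ratio of core to regulatory sums was 1.36 in Control GM replicate 2 and 0.793 to 0.993 in the other C2C12 libraries.

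Short transcripts were high in Control GM replicate 2 across all genes. In 20 bins of transcript length, its median deviation from the mean of the 8 libraries fell from 1.11 in the shortest bin to -0.66 in the longest. The principal transcripts of the core members had a median of 1162.5 bases, those of the regulatory members 1636 and those of all genes tested 2987. The median deviation of the core members there was 1.00, against 0.28 for the other genes between the shortest and the longest of them, most of which are longer than the core median, and that of the regulatory members 0.39 against 0.16. In the bins whose median lengths of 1059 and 1332 bases lie on each side of the core median, all genes were at 0.81 and 0.59, so the excess of the core members over genes of like length was smaller than the first comparison gives. With the libraries centred within bins of transcript length, an alternative chosen after the data had been seen, the medians of Control DM3 against GM were 0.15 for the core and 0.18 for the regulatory particle. Psmc6 was called as higher there, where 2.34% of all genes were called in either direction.

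**Figure D4:**
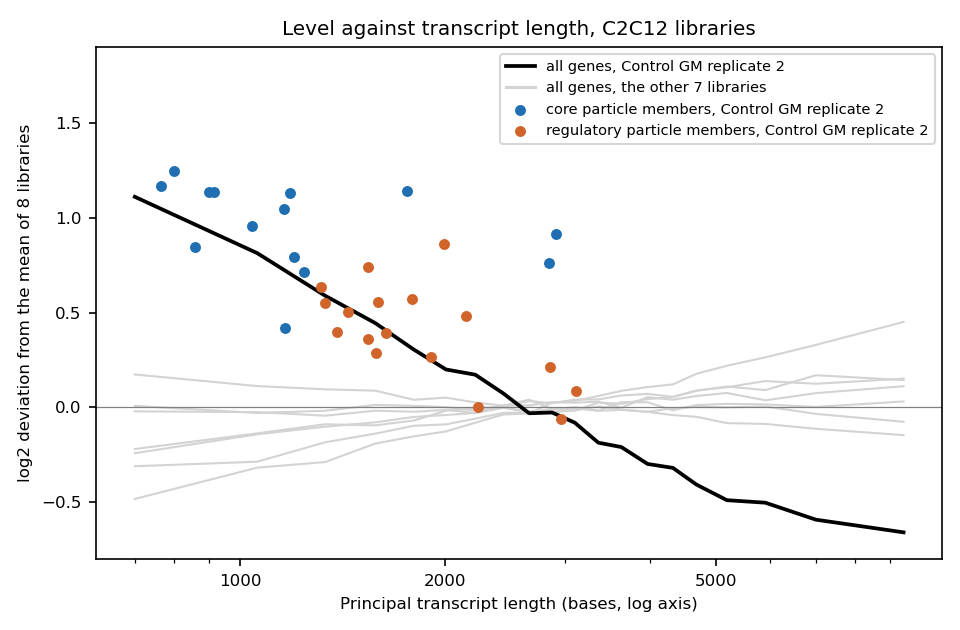
Log2 deviation from the mean of the 8 C2C12 libraries against the length of the principal transcript (log axis): black, median of all genes by length bin in Control GM replicate 2; grey, the same in the other 7 libraries; dots, core (blue) and regulatory (orange) members in Control GM replicate 2. The black line falls from 1.11 to -0.66, and 14 of 14 core members lie above 0.

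In Mettl3 knockdown cells, 14 of 14 core and 15 of 17 regulatory members were lower by sign in DM3 than in GM, with medians of -0.32 and -0.30, where 0.0289% of all genes were called, and 1 member had an unadjusted p of at most 0.05. The core sums were 568 and 742 FPKM in GM and 489.7 and 560.5 FPKM in DM3, and the regulatory sums 697.5 and 747 and 588.5 and 614.5 FPKM. Neither the core nor the regulatory sums overlapped between the media, but the core libraries of GM differed from each other by more than the nearest libraries of the media did. In GM, Mettl3 knockdown against Control gave medians of -0.46 and -0.28, where 0% of all genes were called and 0 members had an unadjusted p of at most 0.05. Without Control GM replicate 2 these medians were 0.19 and -0.031, and after length centring they were -0.11 and -0.10.

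The clearest difference in sign was between Mettl3 knockdown and Control in DM3, whose means do not use Control GM replicate 2, although its spread enters the fit. By sign, all 14 core and 17 regulatory members were lower in the Mettl3 knockdown, with medians of -0.44 and -0.52 beside -0.05 for all genes, and 0 were called, where 1.98% of all genes were called. In 9 of 14 core and 16 of 17 regulatory members both knockdown libraries lay below both Control libraries, against 34.2% of all genes. Of the 3 chaperone genes, 1 was higher by sign. The smallest adjusted p was that of Psmd1, a base scaffold (log2 fold change -0.66 ± 0.15, limma adjusted p = 0.0887). An unadjusted p of at most 0.05 was found for 6 members, all of the regulatory particle, which were Psmc5, Psmc6, Psmd1, Psmd3, Psmd6 and Psmd11. The share of all genes at that unadjusted p is not given here, so this count cannot be read as an excess of members. Psmc3 was at 101 and 114 FPKM in Control and 68.9 and 79.7 FPKM in Mettl3 knockdown, Psmd2 at 76.6 and 78.0 and at 67.3 and 68.1 FPKM, Psmb4 at 67.4 and 82.0 and at 49.4 and 56.8 FPKM, and Psma6 at 85.3 and 107 and at 81.4 and 84.2 FPKM. For each of these the groups did not overlap.

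The calls in this comparison changed with the fit. With only these 4 libraries in the fit, 6 members were called as lower (Psmb7, Psmc5, Psmd1, Psmd6, Psmd11 and Psmd14), where 8.90% of all genes were called as lower. After centring by transcript length, 5 were called as lower (Psmb3, Psmb6, Psmc4, Psmc5 and Psmd1), where 1.73% of all genes were called as lower. The medians after centring were -0.47 and -0.56. The 5 myoblast and myocyte markers summed to 373 to 401 FPKM in Control DM3, 34.6 to 35.9 in Mettl3 knockdown DM3 and 26.2 to 51.4 in Control GM. The 7 muscle fibre markers summed to 430 to 476 FPKM in Control DM3 and 10.2 to 13.3 in Mettl3 knockdown DM3, and the 4 markers of dividing cells to 52.7 to 61.7 and 22.0 to 24.0. The paper reports the other direction for the knockdown after differentiation, with more MyHC protein, more fusion and higher fusion genes by RT-qPCR. The part of differentiation and division in the levels of the members was not tested.

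**Figure D5:**
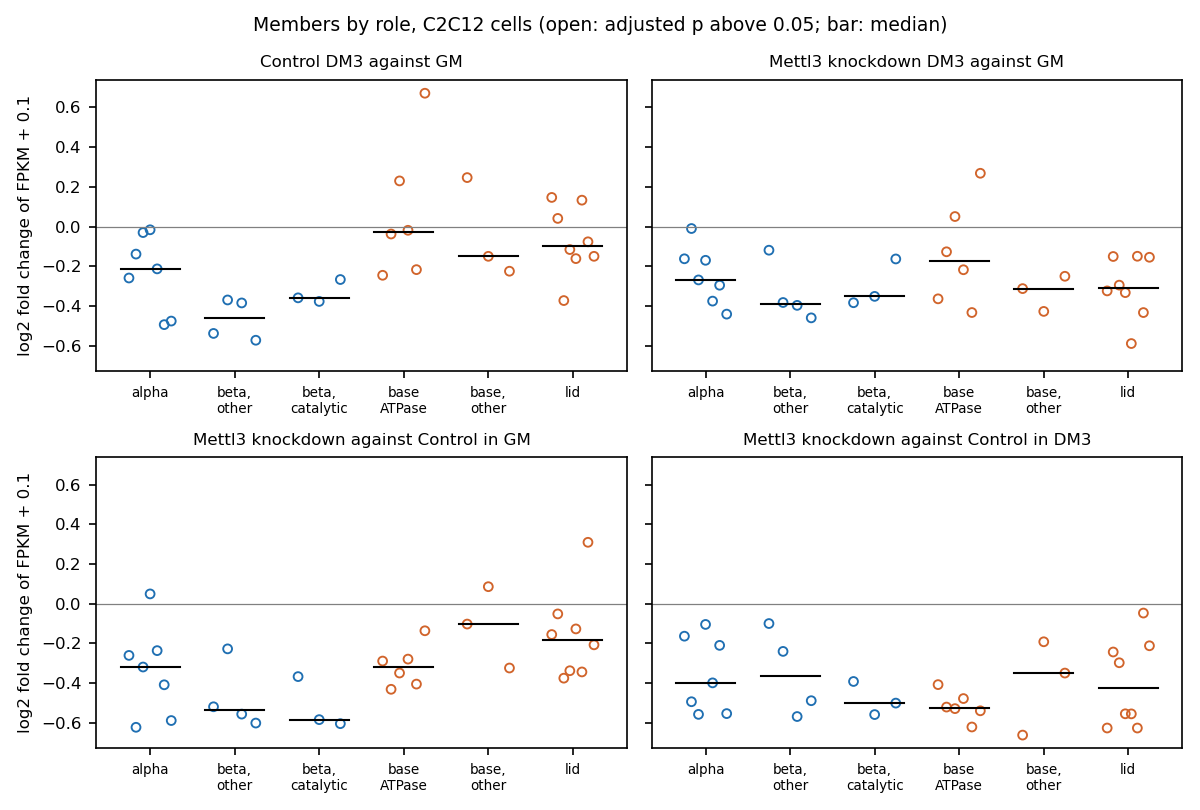
Log2 fold change of FPKM + 0.1 for each core (blue) and regulatory (orange) member by role in 4 comparisons of C2C12 cells; open circles are members that were not called and bars are role medians. All core and regulatory members lie below 0 in Mettl3 knockdown against Control in DM3, and the comparisons with Control GM rest on 1 library that stands apart.

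The effect of the knockdown in DM3 was set against that in GM in the same fit. The medians of this difference were 0.03 for the core and -0.22 for the regulatory particle, 0 members were called, where 0% of all genes were called, and 1 member had an unadjusted p of at most 0.05. The core median turned to -0.20 under quantile normalization and to -0.29 after length centring. Without Control GM replicate 2 the medians were -0.55 and -0.48, and without replicate 1 they were 0.68 and 0.052. Of the 42 other pathway genes, 41 were tested in C2C12 cells and 0 were called in any of the 5 comparisons. Psmb8 was at 0.690 and 0.533 FPKM in Control DM3 and 2.53 and 2.34 FPKM in Mettl3 knockdown DM3, where it made up 8.96% and 6.05% of its pair with Psmb5.

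Members of a particle varied together across libraries. The Pearson correlation of a member with the median of the other members of its particle had a median of 0.84 for core and 0.89 for regulatory members over the 10 muscle libraries, and of 0.96 and 0.88 over the 8 C2C12 libraries. The lowest values were 0.19 for Psmd2 in C2C12 cells and 0.29 for Psmc3 in muscle. These points share libraries, depth and, in C2C12 cells, the trend with transcript length, so they are given as a description.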

How the data were processed

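Total RNA of 10 muscle libraries and 8 C2C12 libraries was sequenced. Per the paper's methods, reads were aligned with HISAT2 to GRCm38 (the labels also name mm10) and counted with featureCounts, and the authors made the deposited FPKM values with DESeq2. The strand setting of the counting is not given in the sources used here. The tables were scaled separately and compared only within themselves. Depth was read from whole-read steps (97.1% to 97.9% of values whole in muscle and 98.7% to 99.0% in C2C12 cells, within 0.05 of a read).

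Values were tested as log2(FPKM + 0.1), for genes that reached 0.5 FPKM in 2 libraries or more, with limma 3.58.1 (moderated statistics with a trend, R 4.3.3), all groups of a table in 1 fit. Tables and figures used Python 3.11.15, pandas 2.3.3, numpy 2.4.6 and matplotlib 3.10.9. Fold changes are on the log2(FPKM + 0.1) scale. With 2 libraries per group, an exact permutation test cannot go below p = 0.333. The paper speaks of independent biological samples in general, but neither it nor the labels say which animal or culture each of the 2 libraries of a group came from, so p-values measure the spread between these libraries, which may be technical. The code was tested on simulated data.

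The members and lists were chosen with earlier results of these data known. Values in every library were given for the 2 core and 2 regulatory members of highest mean in each table and, for each comparison, the called members with the largest rise and fall. Other pathway genes were given by role with the largest change of each role, except for results that are not reported here. Psmb7, Psmd8 and further named genes were added after their values were seen. Alternatives were other pseudocounts (0.01 and 1), filters (1 FPKM, none), median-ratio and quantile scaling, only the groups compared, a replicate block, an Xist covariate (libraries above 1 FPKM), each library left out, unadjusted p-values and the study's fold threshold (log2 of 2). Only day 3 holds libraries both with and without Xist expression. In comparisons with day 3 the Xist covariate therefore gives the estimates of the fit without 1 of its 2 libraries. Centring within 20 bins of transcript length was chosen after seeing the data. Libraries of cells that overexpress Mettl3 or GFP were not analysed here.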

Additional observations from a re-analysis of the deposited data

How the results depend on the processing

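Having 2 libraries per group limits all calls, and a group left with 1 library was assumed to vary like the others. Of the checks on called members other than leaving out a library, 224 kept the call, 55 lost it and 1 turned, Psma6 on day 3 against day 0 under quantile normalization (0.00066 in log2, limma adjusted p = 0.997). Median-ratio scaling, 1 of these checks, left the values almost unchanged, so it was bound to keep the calls. The Xist covariate, also among them, gives the estimates without 1 day 3 library in comparisons with day 3. The 224 therefore overstates how far the calls were tested. With a library left out, 41 kept the call and 71 lost it. The share of all genes called moved between these settings too, so a changed count is not in itself a result about the members. Shares of all genes given below are in either direction. For counts at an unadjusted p or at the fold threshold the matching share is not given, so they are no result about the members. The cause of these changes was not tested.

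Day 1 against day 0 had 2 members called under quantile normalization (3.69% of all genes, regulatory median 0.46) and 1 after length centring (6.81%). It had 8 at an unadjusted p. With a library left out, its core median ran from -0.028 to 0.45 and its regulatory median from 0.10 to 0.46. Day 3 against day 0 had 10 under quantile normalization (50.4% of all genes, medians 0.26 and 0.12) and 10 after length centring (49.5%). It had 13 unadjusted and 0 at the study's fold threshold. Day 5 against day 0 had 0 under quantile normalization (21.9% of all genes, medians -0.0034 and -0.018). It had 0 with only these groups (8%), 0 with the Xist covariate (0%), 0 at the fold threshold and 11 unadjusted. Day 10 against day 0 had 1 unadjusted. Day 3 against day 1 had 3 with only these groups, 3 with the Xist covariate and 0 at the fold threshold, medians -0.033 and -0.35 under quantile normalization, and with a library left out 3 to 21, core median -0.57 to -0.092 and regulatory median -0.83 to -0.41. Day 10 against day 3 had 0 at the fold threshold and medians of -0.18 and -0.013 under quantile normalization.

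Control DM3 against GM had 1 after length centring (2.34% of all genes) and 1 with the block added (3.22%), with medians 0.15 and 0.18 in either. It had 1 unadjusted and a regulatory median of 0.12 under quantile normalization. With a library left out, its core median ran from -0.98 to 0.30 and its regulatory median from -0.33 to 0.24. Mettl3 knockdown DM3 against GM had 1 unadjusted, and its core median ran from -0.49 to -0.08 and its regulatory median from -0.32 to -0.25 with a library left out. Mettl3 knockdown against Control in GM had core median -0.24 under quantile normalization, and -0.11 and regulatory median -0.10 after length centring, with or without the block, and with a library left out core median -1.15 to 0.19 and regulatory median -0.55 to -0.031. In DM3 it had 6 with only these groups (19.1% of all genes) and 5 after length centring (4.62%). It had 4 with the block added to that centring (5.61%) and 6 unadjusted. The effect in DM3 against that in GM had 1 unadjusted, medians -0.20 and -0.42 under quantile normalization and -0.29 and -0.44 after length centring, with or without the block, and with a library left out core median -0.55 to 0.68 and regulatory median -0.48 to 0.052.

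The labels link the libraries only by replicate numbers. In C2C12 cells, replicate 1 libraries had 25.2 to 29.6 M reads on genes and replicate 2 libraries 14.2 to 18.9 M. The gene Gm23935 was at 3367 to 5071 FPKM in replicate 1 and 32000 to 354500 FPKM in replicate 2. The median deviation in the shortest length bin was -0.48 to -0.22 in replicate 1 and -0.021 to 1.11 in replicate 2. The labels do not say what the replicate numbers stand for. Deviations of same-numbered libraries correlated at 0.278 to 0.680 between C2C12 groups and at -0.0187 to 0.211 between days. With the replicate block, 11 members were called on day 3 against day 0 (49.6% of all genes) and 6 on day 5 (27.5%). It called 16 on day 3 against day 1 (33% of all genes), 9 on day 10 against day 3 (39.5%), and 0 in C2C12 cells (at most 3.65%).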
